A study of Mus musculus with 6 samples.

Results

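The genes described here are 10 genes of the small blood vessels of the brain, chosen by symbol from the deposited table of 24054 genes. They are 7 genes used as markers of brain endothelial cells, namely Cldn5, Pecam1, Flt1, Slc2a1, Slco1a4, Abcb1a and Mfsd2a, and 3 genes used as markers of pericytes, namely Pdgfrb, Rgs5 and Vtn. All 10 genes passed the filter on low counts, as did 14568 genes in all. RNA-seq had been performed on the polyadenylated transcripts of the substantia nigra (SN), taken from 3 MitoParks and 3 littermate controls (called controls here) on a C57BL/6 background. The labels give the age as 16 to 17 weeks and describe the tissue only as brain, while the methods name the SN. By the methods, MitoParks carry Cre at 1 copy of the dopamine transporter gene and LoxP sites on both copies of Tfam. Controls carry 1 LoxP copy of Tfam and no Cre. The methods take controls from litters of either the MitoPark or the parental strain, while the results of the paper call them littermates. Tfam is the gene of a transcription factor of the mitochondrial genome, and the dopamine transporter promoter directs its loss to cells that use that promoter. None of the mice was treated, and the sex of the sequenced mice is not given in the sources used here.

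The blood-brain barrier is formed by endothelial cells that are sealed to each other by tight junctions, allow little vesicle transport across the cell, pump many lipophilic compounds back into the blood, and take up nutrients through dedicated transporters. Pericytes lie on the outer side of these capillaries within the basement membrane and are held there by PDGF-B released from endothelial cells. Wnt ligands from neural cells act on endothelial cells to keep the barrier programme running.

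The totals ranged from 8140777 to 10528602 expected counts per mouse, and between 119 and 181 counts lay behind the lowest of the 10 genes in each mouse. Counting error alone, taken from the mean count of each gene over the 6 mice, was between 2.96% and 7.75% for the 10 genes. It is larger in a mouse with fewer counts than that mean. In bulk tissue, fewer vascular cells and less RNA per vascular cell cannot be told apart. As a check of the labels, Tfam was at 40.3, 44.4 and 45.4 CPM (TMM-normalized counts scaled to a common library total) for controls 1 to 3, against 32.7, 33.1 and 33.2 CPM for MitoParks 1 to 3. Slc6a3, the gene of the dopamine transporter, stood at 72.6, 65.2 and 383.4 CPM (controls 1 to 3) and 13.3, 51.1 and 40.9 CPM (MitoParks 1 to 3). Both genes were lower in each MitoPark than in each control, and control 3 stood far above the other mice for Slc6a3.

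None of the 10 vascular genes differed between MitoParks and controls past the cutoffs used here, an unadjusted p below 0.05 together with more than a 1.5-fold change. The methods name these values for edgeR without saying whether the p was adjusted, and elsewhere name an adjusted p below 0.05. Cldn5 had the largest rise in its estimate, at 1.21-fold, and Rgs5 the largest decrease, at 0.883-fold, and neither passed the test. By the quasi-likelihood test of edgeR, 0 of the 10 genes were past the cutoffs, against 0.577% of all genes tested. None of the 10 genes (0 of 10) had an unadjusted p below 0.05, against 1.11% of all genes tested. DESeq2, limma-voom and edgeR's likelihood ratio test also gave 0 genes at an unadjusted p below 0.05, against 0.659%, 0.995% and 0.975% of all genes tested. At these shares of all genes, a count of 0 among 10 genes is close to the background and does not set the vascular genes apart. The estimates were higher in MitoParks for 4 genes and lower for 6, and 48.6% of all tested genes were higher. The median log2 fold change was -0.0074 for the 10 genes and -0.0047 for all tested genes. The ranges of the MitoParks and controls overlapped for all 10 genes, while the groups did not overlap for 4.71% of all tested genes. No gene in the table had an adjusted p below 0.05 (0 of 14568, or 0%), with a smallest adjusted p of 0.999 by Benjamini-Hochberg adjustment.

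**Figure D1:**
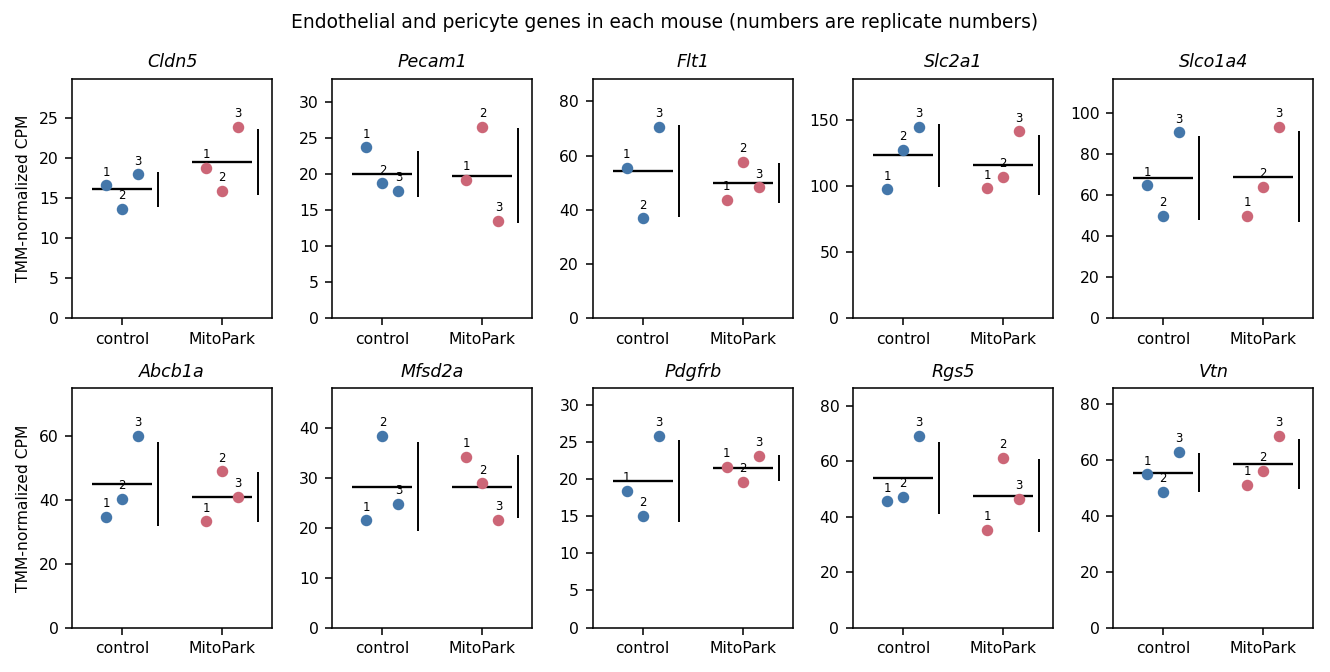
TMM-normalized CPM of each of the 10 genes in each mouse, with 1 panel per gene, a vertical axis from 0, points numbered by replicate, horizontal lines at group means and vertical bars of 1 SD to each side. The controls and MitoParks overlap in all 10 panels, and control 3 is the highest mouse in 5 of them.

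Cldn5 encodes claudin-5, the main claudin of endothelial tight junctions in the brain. Its level was 16.6, 13.7 and 18.0 CPM (controls 1 to 3) and 18.8, 15.9 and 23.9 CPM (MitoParks 1 to 3). MitoPark 3 was the highest mouse and MitoPark 2 lay below controls 1 and 3, so the groups overlapped. The means were 16.1 ± 2.2 CPM for controls and 19.5 ± 4.08 CPM for MitoParks (SD, n = 3 each), with a log2 fold change of 0.28 (95% interval -0.13 to 0.68, unadjusted p = 0.155, adjusted p = 0.999 by edgeR after Benjamini-Hochberg correction). With each mouse left out in turn, its log2 fold change stayed between 0.105 and 0.417. Cldn5 had the smallest unadjusted p of the 10 genes.

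Pecam1 encodes CD31, an adhesion molecule at endothelial cell contacts that is also found on platelets and some leukocytes. It was at 23.7, 18.7 and 17.7 CPM (controls 1 to 3) and 19.3, 26.6 and 13.5 CPM (MitoParks 1 to 3). MitoParks 2 and 3 were the highest and the lowest of all 6 mice, so that the spread within MitoParks covered that of the controls. The log2 fold change of Pecam1 was -0.01 (95% interval -0.53 to 0.51, unadjusted p = 0.955 by edgeR).

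Flt1 encodes VEGF receptor 1, which binds VEGF-A, VEGF-B and placental growth factor on endothelial cells. Its level was 55.6, 36.8 and 70.7 CPM (controls 1 to 3) and 43.6, 57.8 and 48.3 CPM (MitoParks 1 to 3). Controls 2 and 3 were the lowest and the highest mouse, and all 3 MitoParks lay between them. The difference on the log2 scale was -0.12 (95% interval -0.61 to 0.37, unadjusted p = 0.59 by edgeR). The ligands of Flt1, named here for that role and after their values were seen, likewise stayed under the cutoffs. Vegfa was at 76.6 ± 11.3 CPM for controls against 77.3 ± 2.1 CPM for MitoParks, Vegfb at 52.2 ± 5.63 and 54.0 ± 0.643 CPM, and Pgf at 5.72 ± 1.2 and 5.73 ± 1.52 CPM (SD, n = 3 each).

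Of the nutrient transporters, Slc2a1 encodes GLUT1, which carries glucose across the endothelium and is also made by astrocytes. It was at 97.8, 127.9 and 145.2 CPM (controls 1 to 3) and 98.5, 107.4 and 141.6 CPM (MitoParks 1 to 3). Control 1 and MitoPark 1 lay close together at the low end, and control 3 and MitoPark 3 at the high end. The log2 fold change of Slc2a1 was -0.09 (95% interval -0.49 to 0.30, unadjusted p = 0.603 by edgeR). Mfsd2a encodes the carrier of lysophospholipids that brings docosahexaenoic acid into the brain and keeps vesicle transport across endothelial cells low. Its level was 21.5, 38.4 and 24.8 CPM (controls 1 to 3) and 34.2, 28.9 and 21.7 CPM (MitoParks 1 to 3). The group means were nearly equal, at 28.2 ± 8.94 CPM for controls against 28.3 ± 6.32 CPM for MitoParks (SD, n = 3 each), while single mice differed by up to 1.79-fold. The log2 fold change of Mfsd2a was -0.0014 (95% interval -0.53 to 0.52, unadjusted p = 0.995). Control 2, the highest mouse for Mfsd2a, also had 1384 counts of the choroid plexus gene Ttr, where the other mice had between 7 and 227. MitoPark 1, the next highest mouse for Mfsd2a, had the lowest Ttr count, 7. The part of choroid plexus tissue in the level of Mfsd2a was not tested.

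Slco1a4 and Abcb1a encode transporters of drugs and other organic compounds. Slco1a4 encodes OATP1A4, which exchanges organic anions across the endothelium, and was at 64.8, 49.8 and 90.7 CPM (controls 1 to 3) and 50.0, 64.0 and 93.4 CPM (MitoParks 1 to 3). Control 3 and MitoPark 3 stood well above the other 4 mice, so the spread ran within the groups and not between them. The log2 fold change of Slco1a4 was 0.02 (95% interval -0.56 to 0.59, unadjusted p = 0.954 by edgeR).

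Abcb1a encodes a P-glycoprotein that pumps many compounds from endothelial cells into the blood. It was at 34.8, 40.4 and 59.9 CPM (controls 1 to 3) and 33.3, 48.9 and 40.8 CPM (MitoParks 1 to 3). Control 3 was the highest mouse, and the lowest 2 mice, control 1 and MitoPark 1, were in different groups. The log2 fold change of Abcb1a was -0.13 (95% interval -0.62 to 0.35, unadjusted p = 0.547). Abcb1a was also the only 1 of the 10 genes whose expected counts were not whole numbers, at a tolerance of 0.005. It was listed at 312.2, 425.14 and 612.88 counts in the controls and at 272.72, 483.64 and 360.2 in the MitoParks, while its close relative Abcb1b was listed at 19.8, 45.86 and 45.12 and then at 28.28, 33.36 and 32.8. The sum of the pair was a whole number in all 6 mice, the form in which RSEM lists reads divided between 2 genes. In GENCODE M21 transcripts of these genes, 214 of the 4848 windows of 150 bases in the Abcb1a transcript, or 4.41%, also occurred in Abcb1b, and no such window of the other 9 genes occurred in a transcript of any other gene. The longest run that is identical in the pair has 338 bases and lies within the coding part of both transcripts (bases 1509 to 1846 of Abcb1a and 1476 to 1813 of Abcb1b). Its first 150 bases, 1 read length, are shown because a read with these letters cannot be assigned to either gene.
Abcb1a and Abcb1b, start of the shared run: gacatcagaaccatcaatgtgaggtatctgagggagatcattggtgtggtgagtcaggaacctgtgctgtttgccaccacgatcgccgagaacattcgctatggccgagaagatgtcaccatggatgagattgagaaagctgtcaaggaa
With the counts of the pair summed, the log2 fold change was -0.13 (95% interval -0.60 to 0.34, unadjusted p = 0.552 by edgeR), close to that of Abcb1a alone.

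The groups also overlapped for each of the pericyte genes. Pdgfrb encodes the receptor through which pericytes respond to PDGF-B. It was at 18.4, 15.0 and 25.8 CPM (controls 1 to 3) and 21.7, 19.6 and 23.1 CPM (MitoParks 1 to 3). The MitoParks lay within the range of the controls, with a log2 fold change of 0.12 (95% interval -0.31 to 0.56, unadjusted p = 0.545 by edgeR). The gene of the ligand, Pdgfb, named here for that role and after its values were seen, was at 10.2 ± 1.89 CPM for controls against 11.4 ± 2.25 CPM for MitoParks (SD, n = 3 each).

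Rgs5 encodes a regulator of G protein signalling that is abundant in brain pericytes. Its level was 45.5, 47.3 and 69.1 CPM (controls 1 to 3) and 35.2, 61.3 and 46.4 CPM (MitoParks 1 to 3). MitoPark 1 was the lowest mouse and control 3 the highest, with MitoPark 2 above controls 1 and 2. The log2 fold change of Rgs5 was -0.18 (95% interval -0.68 to 0.32, unadjusted p = 0.438). Without control 3 it was 0.0393 and without MitoPark 1 it was 0.00553. With any other mouse left out it lay between -0.396 and -0.16. Vtn encodes vitronectin, an adhesive protein of the matrix and of plasma that pericytes make in the brain. It was at 54.9, 48.7 and 62.9 CPM (controls 1 to 3) and 51.2, 56.1 and 68.6 CPM (MitoParks 1 to 3). Its mice lay closest together of the 10 genes, with 1.41-fold between the highest and the lowest, and its log2 fold change was 0.08 (95% interval -0.25 to 0.41, unadjusted p = 0.597).

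**Figure D2:**
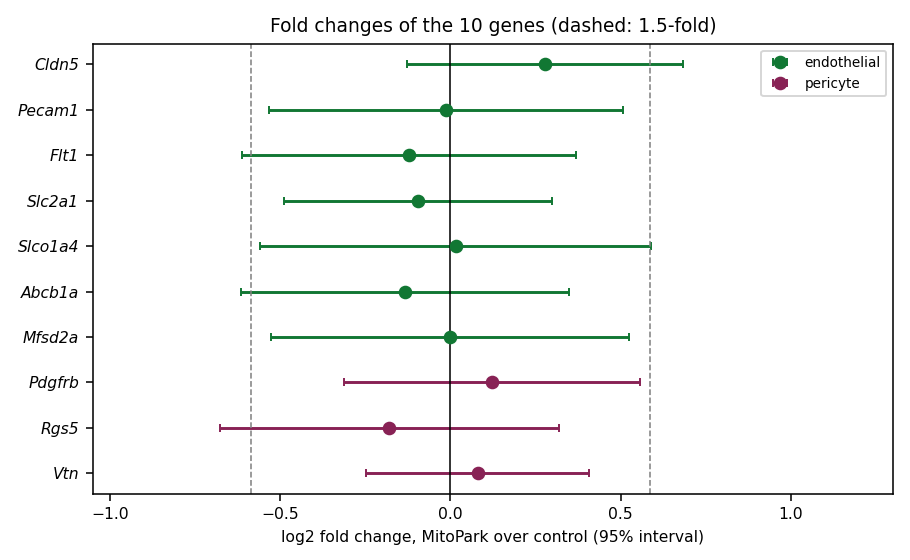
Fold change of each of the 10 genes on the log2 scale (horizontal axis, MitoParks over controls, n = 3 each) with the 95% interval of the quasi-likelihood fit as a bar, endothelial genes in green and pericyte genes in purple, and dashed lines at 1.5-fold. All 10 intervals include 0, and 5 of them lie between the dashed lines.

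A p that misses the cutoff does not show that the groups were alike, so the intervals set what size of change these 6 mice leave possible. All 10 intervals of the difference included no change. For 5 genes, Pecam1, Slc2a1, Mfsd2a, Pdgfrb and Vtn, the 95% interval lay inside a 1.5-fold change in either direction. For the other 5 it reached past 1.5-fold on 1 side, downward for Flt1, Abcb1a and Rgs5 and upward for Cldn5 and Slco1a4. On the fold scale the intervals of all 10 genes ran between 0.626, the lower bound of Rgs5, and 1.61, the upper bound of Cldn5. A two-sided exact permutation test, for which 0.1 is the smallest p with 3 mice a group, gave p-values between 0.4 and 1 for the 10 genes on log2(CPM + 0.1).

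Levels of different genes were compared per kilobase of the longest GENCODE M21 transcript, a length that may differ from that of the isoforms expressed. On that scale Slc2a1 was the most abundant, with a median of 36.1 CPM per kilobase and a range of 30.0 to 44.5 over the 6 mice. Vtn followed at 31.8 (27.9 to 39.3), so the ranges of these 2 genes overlapped. Slco1a4, Mfsd2a, Cldn5 and Rgs5 had medians of 16.8, 12.5, 12.2 and 11.4 CPM per kilobase, with ranges that overlapped with each other and lay below that of Vtn. Abcb1a had a median of 8.12, Flt1 of 7.53, Pecam1 of 5.52 and Pdgfrb of 3.81 CPM per kilobase, each overlapping with its neighbour in this order.

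Summed over the 10 genes, the level was 433.6, 436.6 and 584.7 CPM (controls 1 to 3) and 405.8, 486.5 and 521.3 CPM (MitoParks 1 to 3). The highest mouse was thus 1.44 times the lowest, while the group means were 485 ± 86.4 CPM and 471 ± 59.3 CPM (SD, n = 3 each). Control 3 was the highest mouse for 5 of the 10 genes and MitoPark 3 for 3, and control 2 was the lowest for 5. The same mice stood out in the 148 other vascular genes tested, in which control 3 was highest for 51 and MitoPark 3 for 55, and control 2 was lowest for 51 and MitoPark 1 for 38. The summed level of 4 oligodendrocyte markers (Mbp, Mog, Mag and Mobp) also moved between mice, at 3602, 5646 and 10220 CPM (controls 1 to 3) and 5413, 6811 and 8947 CPM (MitoParks 1 to 3). Control 3, MitoPark 3 and MitoPark 2, in this order, had the highest sums for oligodendrocyte markers and for the 10 vascular genes alike, and the part of tissue make-up in the vascular levels was not tested. Without control 3, 8 of the 10 genes had a log2 fold change above 0. The median of the 10 was then 0.122, and that of all tested genes -0.00499. In that fit 0 of the 10 had an unadjusted p below 0.05, against 2.56% of all genes tested (edgeR). Without MitoPark 1, 8 of the 10 were also above 0, with a median of 0.0174. Without control 2 only 2 were above 0, with a median of -0.0645, and without control 1, MitoPark 2 or MitoPark 3 there were 4.

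**Figure D3:**
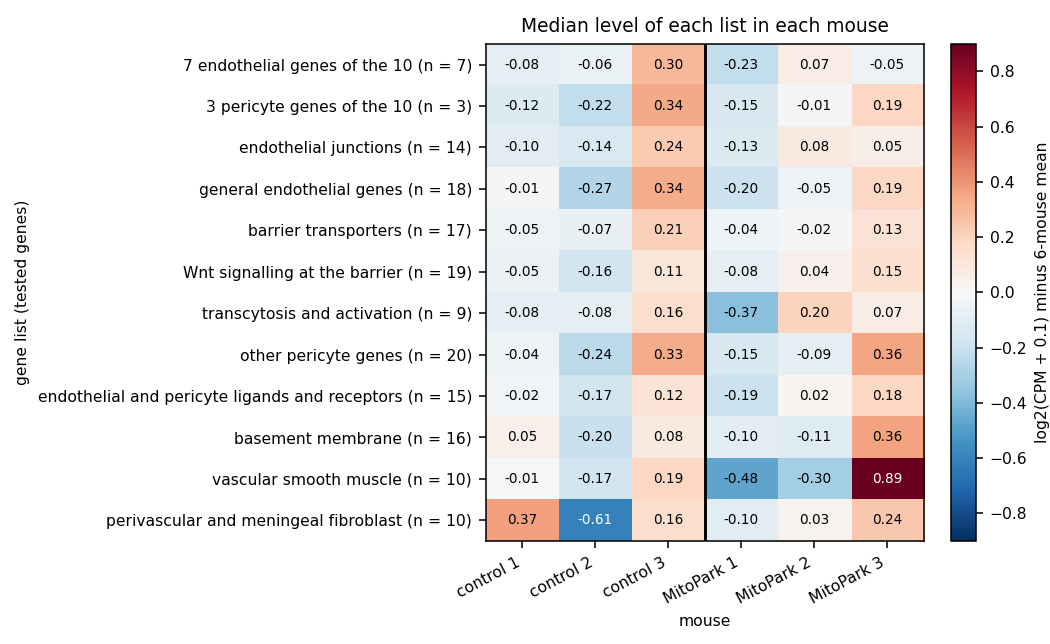
Median over the tested genes of each list (rows) of log2(CPM + 0.1) minus the mean of that gene over 6 mice, for each mouse (columns), with controls to the left and MitoParks to the right of the black line. Control 3 is above 0 in all 12 rows, and MitoPark 3 stands highest for vascular smooth muscle, at 0.89.

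The summed counts of the 3 pericyte genes over those of the 7 endothelial genes gave log2 ratios of -1.41, -1.55 and -1.44 in controls 1, 2 and 3 and of -1.46, -1.35 and -1.47 in MitoParks 1, 2 and 3. MitoPark 2 had the highest ratio and control 2 the lowest, and the other 4 mice lay between -1.47 and -1.41. This ratio is taken within each library and does not depend on the scaling between libraries.

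Other genes of the barrier and of the vessel wall were taken from 10 lists with 152 genes, of which 148 were tested. Past the cutoffs were 0 of the 148 genes (0.577% of all genes), and 0 had an unadjusted p below 0.05 (1.11% of all genes) in edgeR. DESeq2, limma-voom and edgeR's likelihood ratio test also gave 0 of them at an unadjusted p below 0.05 (0.659%, 0.995% and 0.975% of all genes). With a mouse left out, edgeR gave 2 of them without control 1 (1.65% of all genes), 2 without control 3 (2.56%), 4 without MitoPark 2 (4.49%) and 1 without MitoPark 3 (0.668%), and 0 without control 2 or MitoPark 1. Their median log2 fold change was 0.0198, with 84 genes higher and 64 lower, and the groups did not overlap for 1 gene, Des (4.71% of all tested genes). In each list the genes named are those with the smallest p and that with the highest mean CPM, which is not corrected for transcript length.

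Of 14 junction genes, 8 were higher and 6 lower, with a median log2 fold change of 0.0070. Marveld2, which encodes tricellulin, had a log2 fold change of 0.297 (unadjusted p = 0.386), Jam2, which encodes a junctional adhesion molecule, one of -0.122 (unadjusted p = 0.389), and Tjp1, which encodes the junction scaffold ZO-1, one of 0.0685 (unadjusted p = 0.629). Of 18 general endothelial genes, 7 were higher and 11 lower, with a median of -0.0206. Kdr, the gene of VEGF receptor 2, was at 9.8, 9.78 and 16.9 CPM (controls 1 to 3) and 10.5, 13.9 and 7.14 CPM (MitoParks 1 to 3), and Sox18, a gene for an endothelial transcription factor, had a log2 fold change of -0.179 (unadjusted p = 0.492). Itm2a had the highest mean CPM of the general endothelial genes, with 50.1 to 70.6 CPM over the 6 mice. Ptprb was higher in some of these mice, at 82.1 CPM in control 3. Per kilobase of transcript Ly6c1 was higher than Itm2a, with a mean of 47.6 CPM per kilobase against 34.8.

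Barrier transporters and receptors numbered 17, with 7 higher, 10 lower and a median of -0.0157. The smallest p was that of Insr, the insulin receptor gene, with a log2 fold change of 0.177 (unadjusted p = 0.224). Spock2 followed, with -0.169 (unadjusted p = 0.267), a gene counted in this list though its product is a matrix proteoglycan and not a transporter or receptor. Of 19 genes for Wnt signalling at the barrier, 8 were higher and 11 lower, with a median of -0.02. Wnt7a, a ligand from neural cells, had a log2 fold change of 0.248 (unadjusted p = 0.177), Tspan12, a partner of the receptor Fzd4, one of -0.216 (unadjusted p = 0.231), and Ctnnb1, the gene of beta-catenin, one of -0.0584 (unadjusted p = 0.613). These p-values are from edgeR.

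Genes for transcytosis and for activated endothelium were 13, of which Sele, Selp, Lrg1 and Lcn2 had too few counts to be tested. Sele had 1 count and Selp 2 counts in MitoPark 2 and neither had any in the other 5 mice, and Lcn2 had 13 counts in control 1 only. Of the 9 tested, 5 were higher and 4 lower, with Cav2, the gene of caveolin-2, at 37.2, 49.6 and 58.3 CPM (controls 1 to 3) and 29.1, 49.0 and 37.8 CPM (MitoParks 1 to 3) (unadjusted p = 0.163). Vcam1, an adhesion molecule for leukocytes, had a log2 fold change of 0.151 (unadjusted p = 0.337). Plvap, which marks leaky endothelium with fenestrae and was named after its values were seen, was at 7.92 ± 0.587 CPM for controls against 8.18 ± 0.667 CPM for MitoParks (SD, n = 3 each).

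Of 20 other pericyte genes, 11 were higher and 9 lower, with a median of 0.0097. Rgs4, a relative of Rgs5 that neurons also express strongly, was at 213.9, 218.5 and 183.9 CPM (controls 1 to 3) and 174.6, 201.2 and 132.8 CPM (MitoParks 1 to 3), a log2 fold change of -0.277 (95% interval -0.62 to 0.07, unadjusted p = 0.105). Anpep, which encodes the pericyte surface enzyme CD13, was low, at 3.45 ± 1.1 CPM for controls against 2.31 ± 1.04 CPM for MitoParks (SD, n = 3 each, unadjusted p = 0.184). Of the 15 genes for ligands and receptors of vascular cells, 10 were higher and 5 lower. Without MitoPark 3, 6 of the 15 were higher, with a median log2 fold change of -0.0355. Nrp1 had a log2 fold change of -0.13 (unadjusted p = 0.408), Tgfb1 of 0.253 (unadjusted p = 0.462), and S1pr1, the most abundant also per kilobase, of 0.0661 (unadjusted p = 0.647). All p-values in this account of pericyte and ligand genes are from edgeR.

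Of 16 basement membrane genes, 12 were higher and 4 lower, with a median of 0.0638. MitoPark 3 was the highest mouse for 9 of the 16. Without MitoPark 3, 6 of the 16 were higher and the median was -0.0592. Col4a1 and Col4a2, the genes of the main type IV collagen chains, had log2 fold changes of 0.207 and 0.223 (unadjusted p = 0.201 and 0.182), and MitoPark 3 was the highest mouse for both, at 78.7 and 124.0 CPM. Sparc, the most abundant basement membrane gene listed, had a log2 fold change of 0.0911 (unadjusted p = 0.52).

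All 10 vascular smooth muscle genes had a log2 fold change above 0, with a median of 0.236, and none had an unadjusted p below 0.05 (edgeR). This rested on 1 mouse. MitoPark 3 was the highest mouse for 9 of the 10 genes, and without it 1 of 9 genes tested was above 0 and the median was -0.307. In that fit 1 of the 9 had an unadjusted p below 0.05, against 0.668% of all genes tested (edgeR). Myh11, the gene of smooth muscle myosin, was at 15.2, 13.9 and 17.7 CPM (controls 1 to 3) and 11.3, 12.2 and 35.6 CPM (MitoParks 1 to 3). Des, which encodes desmin, was low, at 1.34, 1.43 and 1.27 CPM (controls 1 to 3) and 1.46, 2.33 and 2.15 CPM (MitoParks 1 to 3) (unadjusted p = 0.125). Mylk, the smooth muscle gene with the highest CPM before any correction for length, had a log2 fold change of 0.0396 (unadjusted p = 0.856). Smooth muscle cells can also express Pdgfrb and Rgs5, for which MitoPark 3 was at 23.1 and 46.4 CPM, within the range of the other mice.

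Of 10 genes of perivascular and meningeal fibroblasts, 6 were higher and 4 lower, with a median of 0.084. Slc6a13, a GABA and taurine transporter gene of these cells, was at 5.68, 2.19 and 3.71 CPM (controls 1 to 3) and 4.39, 6.77 and 5.1 CPM (MitoParks 1 to 3) (unadjusted p = 0.176). Slc13a3 had a log2 fold change of 0.147 (unadjusted p = 0.438 by edgeR), and Pdgfra, which oligodendrocyte precursors also express, had one of -0.0688.

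**Figure D4:**
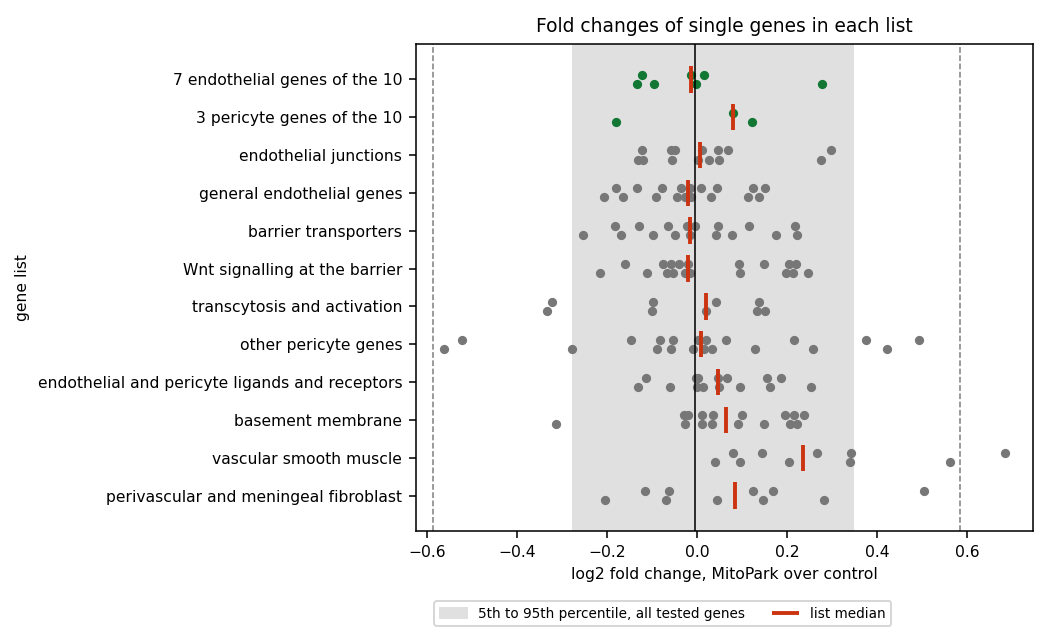
Fold change of every tested gene of each list on the log2 scale (horizontal axis, MitoParks over controls), with red bars at list medians, a black line at the median of all tested genes, a grey band from the 5th to the 95th percentile of all tested genes, and dashed lines at 1.5-fold. All 10 genes described here (green) lie inside the band, which runs from -0.275 to 0.347.

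Markers of other cell types in the dissected tissue gave the following sums. The 5 neuron markers summed to between 3433 and 4586 CPM in controls and between 3250 and 4037 CPM in MitoParks, and the 5 astrocyte markers to between 1263 and 1620 CPM and between 1438 and 1868 CPM. The 4 dopamine neuron markers (Th, Slc6a3, Slc18a2 and Ddc) summed to 295.5, 311.3 and 972.3 CPM (controls 1 to 3) and 181.7, 305.3 and 300.5 CPM (MitoParks 1 to 3). The 5 microglia markers summed to between 146.8 and 195.3 CPM and between 178.1 and 193.2 CPM, the 6 choroid plexus markers to between 21.9 and 181.4 CPM and between 36.5 and 55.8 CPM, and the 5 red cell markers to between 108.4 and 216.6 CPM and between 175.2 and 239.8 CPM. The ranges of controls and MitoParks overlapped for each of these sums.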

How the data were processed

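Polyadenylated RNA from the SN of 3 MitoParks and 3 littermate controls was measured by single-end sequencing. The authors mapped reads to UCSC transcripts with Bowtie2 2.1.0 and estimated counts per gene with RSEM 1.2.15 (versions per the labels), and deposited the expected counts without scaling for depth or length. The submitters' processing notes name a human build for these mouse libraries and the methods name none for this alignment, so no genome coordinates are given. Groups came from the sample titles, and the columns headed Treat were matched to the mice of the same number.

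Here the expected counts were rounded, a gene was kept if either group averaged more than 1 CPM (14568 of 24054), and edgeR 4.0.16 in R 4.3.3 fitted its quasi-likelihood model to the whole table after TMM scaling, with group as the only term. Intervals at 95% came from the fitted weights and the moderated dispersion. Benjamini-Hochberg adjustment ran over all tested genes. Gene lengths and shared windows came from GENCODE M21 transcripts. The procedure was also run on simulated data with planted changes larger than 1.5-fold, and smaller changes were not simulated. Alternatives used limma 3.58.1, DESeq2 1.42.0, RLE or no scaling, other filters, a replicate block and each mouse left out, and figures were drawn with matplotlib 3.10.9. A level of 3 counts was between 0.285 and 0.366 CPM, which covers counting error only. Nothing says that the mice of a group came from separate litters.

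The 10 genes and the other lists were chosen with earlier results of these data known. All 10 genes are named. From each other vascular list the text names every gene past the cutoffs, the 2 with the smallest p and that with the highest mean CPM, and a few others marked as such. A gene of the oligodendrocyte list is not reported here.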

Additional observations from a re-analysis of the deposited data

How the results depend on the processing

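With all 6 mice, 8 other ways of processing the counts left 0 of the 10 genes past the cutoffs and 0 at an unadjusted p below 0.05. So did the 6 fits that each left out 1 mouse. The share of all tested genes at an unadjusted p below 0.05 ran from 0.659% (DESeq2) to 4.49% (edgeR without MitoPark 2). At such shares a count of 0 among 10 genes is close to the background. The signs of small log2 fold changes were not stable. That of Mfsd2a turned from -0.0014 to 7.93e-05 with the likelihood ratio test of edgeR, 0.000792 with DESeq2, 0.011 with limma-voom, 0.0109 with total counts, 0.00993 with CPM above 1 in all mice and 0.0112 with the replicate block. With 1 mouse left out, log2 fold changes ran from -0.285 to 0.199 for Pecam1, from -0.337 to 0.115 for Flt1, from -0.265 to 0.0381 for Slc2a1, from -0.263 to 0.273 for Slco1a4, from -0.283 to 0.128 for Abcb1a, from -0.158 to 0.286 for Mfsd2a, from -0.0428 to 0.365 for Pdgfrb, from -0.396 to 0.0393 for Rgs5 and from -0.0484 to 0.18 for Vtn. Cldn5 was higher in MitoParks in all 14 of these fits, which share mice and so are not independent. Its log2 fold change fell to 0.105 without MitoPark 3. The cause of the turns of sign in the other genes was not tested. Summing Abcb1a with Abcb1b, chosen after the data were seen, left its direction and call as they were.

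All tested genes past the cutoffs were 84, 176 without a filter on low counts, and between 62 and 219 with 1 mouse left out (133 without control 1, 219 without control 3 and 217 without MitoPark 2). Of the other vascular genes, 1 (Lcn2, with counts in control 1 only) was past the cutoffs without the filter, and between 0 and 2 with 1 mouse left out, namely Ogn and Slc6a13 without control 1 and Ndufa4l2 without control 3. With the replicate block 126 genes were past the cutoffs, and the number at an unadjusted p below 0.05 went from 161 to 323. The 10 genes then had a median log2 fold change of -0.0174. Of the 148 other vascular genes, 2 had an unadjusted p below 0.05, against 2.22% of all genes tested (edgeR). They were Rgs4 and Cav2, with unadjusted p-values of 0.0202 and 0.038 (edgeR). Of the 10 genes Cldn5 had the smallest unadjusted p with the block, at 0.0738 (edgeR). Same-numbered mice deviated together for numbers 1 and 3 (correlation over genes 0.307 and 0.244) but not for 2 (-0.0738). The deviations were taken from group means of 3 mice, so these correlations are not independent and do not settle whether the numbers are pairs. The main fit did not take them as pairs.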
